A study of Danio rerio with 4 samples.

Results

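Apolipoproteins are the protein parts of lipoproteins, the particles that carry lipids in plasma and between cells. The zebrafish genes of this kind followed here, 8 in number, were taken by symbol: apoea (ENSDARG00000102004), apoeb (ENSDARG00000040295), apoc1 (ENSDARG00000092170), apoa1a (ENSDARG00000012076), apoa1b (ENSDARG00000101324), apoa2 (ENSDARG00000015866), apoa4a (ENSDARG00000101160) and apobb.1 (ENSDARG00000022767). All 8 symbols matched 1 feature each among the 27758 features of every library. The data came from 4 single-cell libraries of zebrafish larvae, 1 in each group. Cells positive for gata2b GFP were sorted at 3 days post fertilization (dpf), and cells positive for mpeg1.1 mCherry at 6 dpf. At each stage, 1 library came from embryos given the solvent DMSO and 1 from embryos given 20 µM SB431542, which blocks the TGF-β type I receptor ALK5 (written ALK5i here), in both cases from 30 to 50 hours post fertilization. Whole larvae were minced and digested before sorting, and embryos were treated in shared wells. The labels name no line or genotype beyond these reporters.

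In vertebrates, apolipoprotein A and B proteins are made mainly by liver, intestine and, in fish larvae, the yolk syncytial layer. The apobb.1 product is an ApoB-like protein, the scaffold of the large particles, and the products of apoa1a, apoa1b and apoa2 belong to small, dense particles. Apolipoprotein E is a ligand for receptors of the LDL family and is also made by macrophages and by glia of the brain. ApoC1 modulates receptor binding and lipoprotein enzymes in mammals, and apoA-IV is known there as a product of intestine. In zebrafish, apoeb is widely used to mark microglia, the resident macrophages of the brain.

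Counts are unique molecular identifiers (UMIs). For every cell class of a library, the UMIs of a gene were added up and scaled to a common total of 1000000, which gives CPM. UMIs mark the 3′ ends of RNA molecules, so a CPM is not divided by transcript length. Intervals are exact 95% intervals that cover counting error only. Each group is 1 library: the treatment cannot be told apart from the pool of embryos or the library preparation, nor the stage from the sorted reporter, and no p-value is given. The libraries held between 1272 and 34398 barcodes and between 12121332 and 97212191 UMIs. They shared between 3 and 248 barcodes per pair, at most 1.34% of either library. Cell classes were rebuilt from marker genes, with every member kept out of the genes used for clustering and out of the marker lists, and each class is called "-like". A class built from these cells and compared with the rest of them is a description.

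Microglia-like cells numbered 1113 (DMSO) and 1300 (ALK5i) at 3 dpf, against 9122 and 8527 other macrophage-like cells. The 11 matched microglia markers summed to 10041 and 10122 CPM in them and to 3672 and 3840 CPM in the other macrophage-like cells. At 6 dpf a cluster of 27 (DMSO) and 34 (ALK5i) cells met the same naming rule with 3 markers, but the cell-cycle genes ube2c and cdk1 were among its leading genes. Its microglia markers summed to 3332 and 3363 CPM, below the 4356 and 4100 CPM of the 564 and 352 other macrophage-like cells. By the rule, the 3 counted markers were each at least 1.5-fold above the rest of the macrophage lineage with both libraries together. Taken by itself, the marker p2ry12 was higher in the cluster, at 10.4 and 15.6 CPM (5 and 9 UMIs) against 6.39 and 6.40 CPM. For its leading genes and summed markers it is called the cell-cycle-led cluster below. Hepatocyte-like cells were few, at 55 and 45 cells at 3 dpf and 43 and 23 at 6 dpf. Hepatocyte markers summed to 32335 and 39782 CPM in them at 3 dpf, against 699 and 1064 CPM in the other macrophage-like cells. Neuron-like cells (1359 and 1827 at 3 dpf, 258 and 141 at 6 dpf) served as the background of free RNA, which enters droplets of cells that do not make it.

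At 3 dpf, apoeb and apoc1 were the members of the microglia-like cells, and together they made up 1.98% (DMSO) and 1.56% (ALK5i) of all UMIs there. The level of apoeb was 10552 CPM (interval 10428 to 10678) with DMSO and 7962 CPM (7845 to 8080) with ALK5i. Other macrophage-like cells held 292 and 287 CPM, and neuron-like cells 51.8 and 23.3 CPM. Both microglia-like values thus lay far above every value of the other classes shown in the plot of levels. The level of apoc1 was 9227 CPM (9110 to 9344) and 7597 CPM (7483 to 7712) in microglia-like cells. Other macrophage-like cells held 356 and 449 CPM of apoc1, and neuron-like cells 25.9 and 8.12 CPM.

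**Figure D1:**
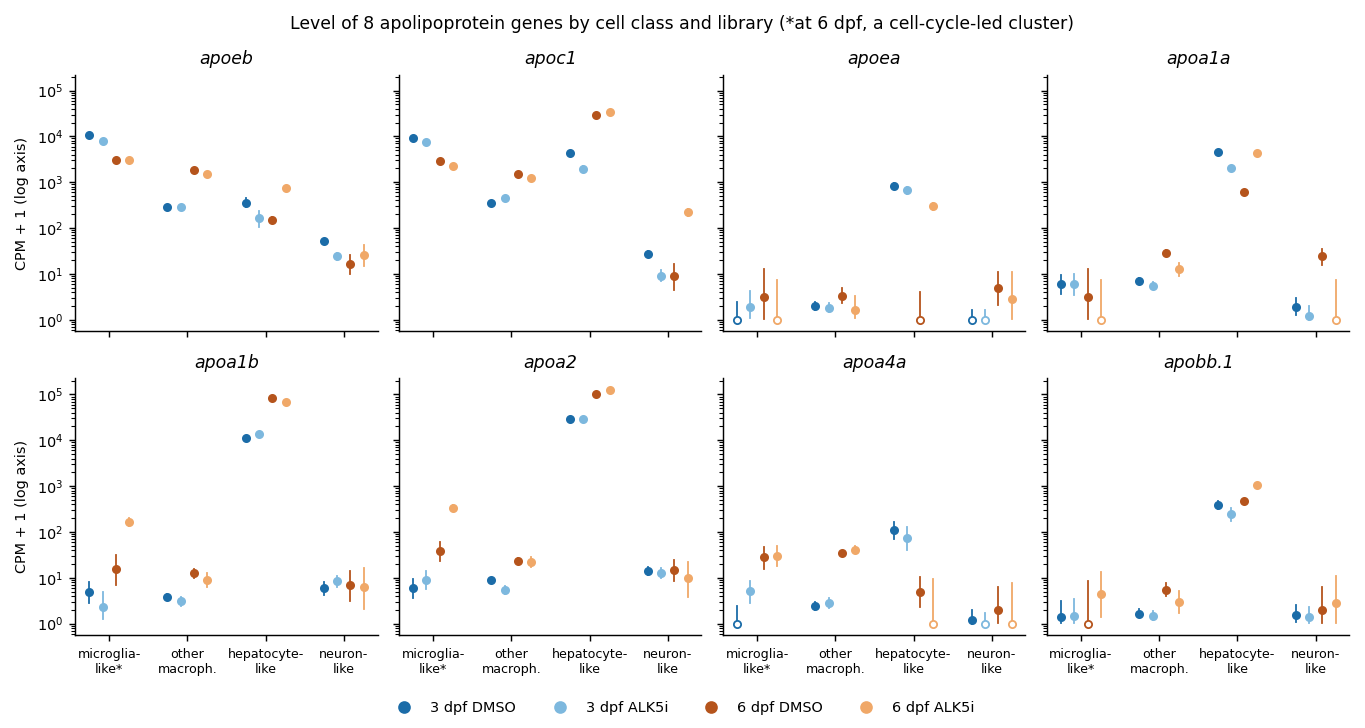
Level of each member in 4 cell classes, as CPM + 1 on a log axis. Points are single libraries, lines are exact Poisson 95% intervals, and open points are classes with no UMI. At 3 dpf apoeb stands at 10552 and 7962 CPM in microglia-like cells against 292 and 287 CPM in other macrophage-like cells, and apoa1b and apoa2 are highest in hepatocyte-like cells in all 4 libraries.

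Against other macrophage-like cells of the same library, apoeb was 36.2-fold higher in microglia-like cells with DMSO and 27.7-fold higher with ALK5i. The log2 ratios of CPM + 5 were 5.15 (interval 5.12 to 5.19) and 4.77 (4.73 to 4.81). For apoc1 the ratios were 25.9-fold and 16.9-fold, with log2 values of 4.68 (4.64 to 4.71) and 4.07 (4.03 to 4.11). Of the members with at least 20 UMIs in the pair of classes, 2 of 7 (DMSO) and 2 of 6 (ALK5i) were more than 2-fold above, where 2.72% and 2.82% of all genes tested were. The median log2 ratio over those members was -0.14 and 0.45, beside 0.02 and 0.05 over all genes tested. When microglia-like cells were instead taken cell by cell, as macrophage-lineage cells with a UMI of at least 2 microglia markers, the log2 ratio of apoeb was 3.58 and 3.06.

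Single microglia-like cells differed widely in both genes. With each cell thinned to 1000 UMIs, the median apoeb count was 8 UMIs with DMSO, with a lower quartile of 1 and an upper quartile of 17, and the highest cell had 57. With ALK5i the median was 5, the quartiles 0 and 13, and the highest cell had 56. At least 1 apoeb UMI was found in 79.7% (77.1 to 82.1%) of thinned microglia-like cells with DMSO and in 74.5% (71.8 to 77.0%) with ALK5i. The unthinned shares were 82.2% and 76.2%, at median depths of 2184 and 1590 UMIs. In other macrophage-like cells the thinned shares were 8.32% and 7.10%. Among classes that should lack the gene, neuron-like cells were at 3.18% and 1.45%, with median depths of 2377 and 1634 UMIs. Muscle-like cells, only 94 and 90 of them after thinning, were at 5.32% (1.75 to 11.98%) and 1.11% (0.0281 to 6.04%), with median depths of 4773 and 3241 UMIs. With DMSO, the share of other macrophage-like cells lay inside the interval of the muscle-like cells. Both genes were found together in 73.8% and 67.7% of thinned microglia-like cells, while 17.09% and 20.92% held neither. In other macrophage-like cells, 4.86% and 4.75% held both.

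The microglia-like cells fell into 3 sub-clusters, and their apoeb levels ran from 7830 to 12705 CPM and their apoc1 levels from 5838 to 15700 CPM with both libraries summed. The lowest of both came from a sub-cluster led by the heat-shock genes hsp70l and hsp70.2, and the highest from a shallow one with a median of 1085 UMIs per cell. The other macrophage-like cells formed 10 sub-clusters, with apoeb between 24.4 and 936 CPM and apoc1 between 30.2 and 867 CPM. The ranges did not overlap between the microglia-like and the other sub-clusters. Those of p2ry12 did not overlap either, at 69.4 to 115 CPM against 1.40 to 17.9 CPM. This gene is on the list of microglia markers that named the sub-clusters, so its separation follows in part from the naming. Sub-clusters were split by expression, and the share of all genes with ranges apart was not computed. A small sub-cluster of 38 cells that mixed macrophage with keratin genes was kept apart and held 6308 CPM of apoeb.

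**Figure D2:**
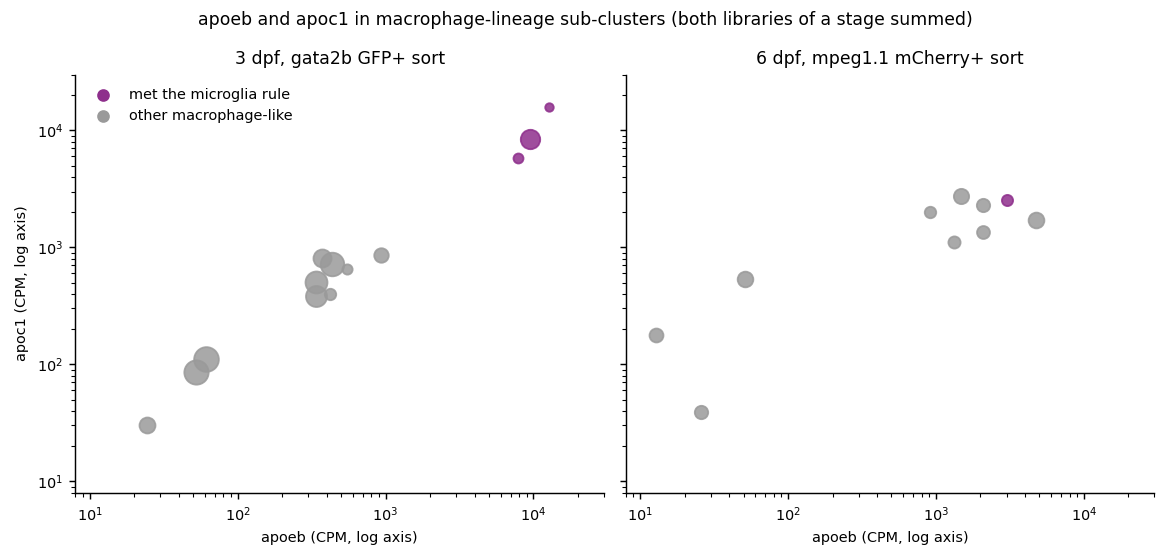
Level of apoc1 against apoeb in macrophage-lineage sub-clusters, both in CPM on log axes, at 3 dpf (left) and 6 dpf (right). Each point is 1 sub-cluster with both libraries summed, and its area grows with the number of cells. The 3 microglia-like sub-clusters at 3 dpf lie at 7830 to 12705 CPM of apoeb, apart from the others, while at 6 dpf the cell-cycle-led cluster lies among macrophage-like sub-clusters that reach 4742 CPM.

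The other 6 members were at 8.07 CPM or less in microglia-like cells at 3 dpf. With DMSO, apoea and apoa4a had no UMI among 2598060 UMIs, which allows up to 1.15 CPM each. Their levels with ALK5i were 0.897 CPM for apoea and 4.03 CPM for apoa4a. The hepatocyte genes apoa1b and apoa2 stood at 3.85 and 5.00 CPM with DMSO and at 1.34 and 8.07 CPM with ALK5i. In neuron-like cells they stood at 4.94 and 13.3 CPM with DMSO and at 7.40 and 11.7 CPM with ALK5i. Of the 18 apoa2 UMIs of microglia-like cells with ALK5i, 66.7% came from 1 cell, and so did 78.2% (DMSO) and 95.4% (ALK5i) of the neuron-like apoa2 UMIs. The levels of apoa1a were 5.00 and 4.93 CPM, above the 0.851 and 0.181 CPM of neuron-like cells, and 1 cell held 90.9% of the 11 UMIs with ALK5i. The apoa4a level with ALK5i rested on 9 UMIs, where neuron-like cells had none, and apobb.1 had 1 UMI in each library.

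The members were also set against a list of 15 liver secretory genes, as UMIs of the member per UMI of the list. In hepatocyte-like cells at 3 dpf there were 0.0135 (DMSO) and 0.00538 (ALK5i) apoeb UMIs per UMI of the list. There were 481 and 404 in microglia-like cells, and 6.82 and 11.1 in other macrophage-like cells. For apoc1, hepatocyte-like cells had 0.167 and 0.0658, microglia-like cells 421 and 385, and other macrophage-like cells 8.32 and 17.3. Of these 3 classes, the ratios of both genes were lowest in hepatocyte-like and highest in microglia-like cells in both libraries. The ratios of apoa1b (0.0657 and 0.0802) and of apoa2 (0.187 and 0.169) in other macrophage-like cells were below those of hepatocyte-like cells (0.417 and 0.459, then 1.09 and 0.988). The list gene fabp10a had 14 and 1 UMIs in other macrophage-like cells, beside 74 and 36 of apoa1b and 210 and 76 of apoa2. In hepatocyte-like cells it had 454 and 421, beside 2450 and 2218 of apoa1b and 6387 and 4772 of apoa2. By these counts the list was not made up alike, as fabp10a was a smaller part of it in other macrophage-like than in hepatocyte-like cells. The lower ratios of apoa1b and apoa2 to the list thus do not compare like with like. The make-up of the list beyond fabp10a was not tested.

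Outside the macrophage lineage, apoeb was highest at 3 dpf among named classes in epidermis-like cells, with 757 CPM (DMSO) and 482 CPM (ALK5i). These cells held 4.94% and 4.1% of all apoeb UMIs of kept cells, and microglia-like cells held 69.2% and 72.1%. At 6 dpf the epidermis-like level was 1521 CPM and 1353 CPM. Their apoc1 level stayed between 23.9 and 55.4 CPM over the 4 libraries. Epidermis-like cells thus held apoeb with little apoc1, unlike microglia-like cells.

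At 6 dpf, apoeb and apoc1 were found in a minority of the macrophage-like cells of the mpeg1.1 sort. After thinning, 65.1% (DMSO) and 67.6% (ALK5i) of these cells held neither. The level of apoeb in these cells was 1828 CPM with DMSO and 1545 CPM with ALK5i, and that of apoc1 was 1494 and 1211 CPM. Neuron-like cells held 15.6 and 24.7 CPM of apoeb. After thinning, 29.4% and 23.5% of the macrophage-like cells had an apoeb UMI, against 1.32% and 0.893% of neuron-like cells. Among 9 macrophage-like sub-clusters, apoeb ran from 12.8 to 4742 CPM and apoc1 from 38.9 to 2770 CPM. The highest apoeb level was in a sub-cluster led by jac2 and jac3, with 4643 CPM (DMSO) and 4907 CPM (ALK5i). That sub-cluster did not meet the microglia rule. Its level of p2ry12, a purinergic receptor of microglia, was 14.6 CPM, from 16 (DMSO) and 9 (ALK5i) UMIs. The cell-cycle-led cluster had 13.2 CPM of p2ry12. The lowest apoeb level was in one led by icn.

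The cell-cycle-led cluster at 6 dpf held 3052 and 3019 CPM of apoeb and 2921 and 2258 CPM of apoc1. Against the other macrophage-like cells the log2 ratios were 0.74 (interval 0.66 to 0.82) and 0.96 (0.88 to 1.04) for apoeb, and 0.97 (0.88 to 1.05) and 0.90 (0.80 to 0.99) for apoc1, all short of 2-fold. With DMSO, 0 of 7 members were more than 2-fold above, against 5.82% of genes tested. These values depend on which cells are called microglia-like. Taken from 2 markers per cell, 4 members were above with DMSO, with apoeb at 2.37 and apoc1 at 2.57, and 4 were above with ALK5i. The share of all genes above under that rule was not computed. In the cluster itself with ALK5i, 2 of 6 members were more than 2-fold above, against 5.81% of genes tested. These were apoa1b at 165 CPM and apoa2 at 336 CPM. A single cell held 91.6% of those apoa1b UMIs and 95.4% of the apoa2 UMIs. Without that cell the levels were 14.4 and 16.2 CPM, beside 14.5 and 37.3 CPM with DMSO, and no member was more than 2-fold above. Only apoa1a was more than 2-fold below, with 1 UMI (DMSO) and none (ALK5i) in the cluster against 27.2 and 11.5 CPM in the other macrophage-like cells. Of all genes tested, 5.57% (DMSO) and 5.22% (ALK5i) were more than 2-fold below. Neuron-like cells held 23.4 CPM of apoa1a with DMSO, most of it from a single cell, and no UMI with ALK5i.

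At 6 dpf, apoa4a was higher in macrophage-like than in hepatocyte-like cells. It stood at 33.1 CPM (interval 28.7 to 38.1) with DMSO and 40.0 CPM (33.3 to 47.7) with ALK5i in other macrophage-like cells. Hepatocyte-like cells held 3.97 CPM from 5 UMIs with DMSO and no UMI with ALK5i. Neuron-like cells held 1 UMI with DMSO and none with ALK5i. At 3 dpf the macrophage-like level had been 1.37 and 1.79 CPM. Macrophage-like cells held 58.1% (DMSO) and 41.7% (ALK5i) of all apoa4a UMIs of kept cells at 6 dpf. The gene was uneven among their sub-clusters, from 0 to 159 CPM, and highest in one led by the ferritin gene fthl29, at 125 CPM (DMSO) and 239 CPM (ALK5i). At 3 dpf the highest macrophage-like sub-cluster, at 9.77 CPM, was also led by fthl29. In the ALK5i library 28.0% of the macrophage-like apoa4a UMIs came from 1 cell, and the level without it was 28.9 CPM. Per UMI of the liver list there were 1.76 and 2.23 apoa4a UMIs in macrophage-like cells, against 4.4e-05 and 0 in hepatocyte-like cells. Small clusters that met no name, described further on, held more, from 64.4 to 154 CPM in those with over 10 cells and more than 1 UMI.

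The ratio of apoa2 to the liver list in 6 dpf macrophage-like cells was 1.19 (DMSO) and 1.18 (ALK5i), beside 1.15 and 1.72 in hepatocyte-like cells. That of apoa1b was 0.607 and 0.446, beside 0.917 and 0.958 in hepatocyte-like cells. The levels themselves were 22.4 and 21.1 CPM for apoa2 and 11.43 and 8.004 CPM for apoa1b.

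**Figure D3:**
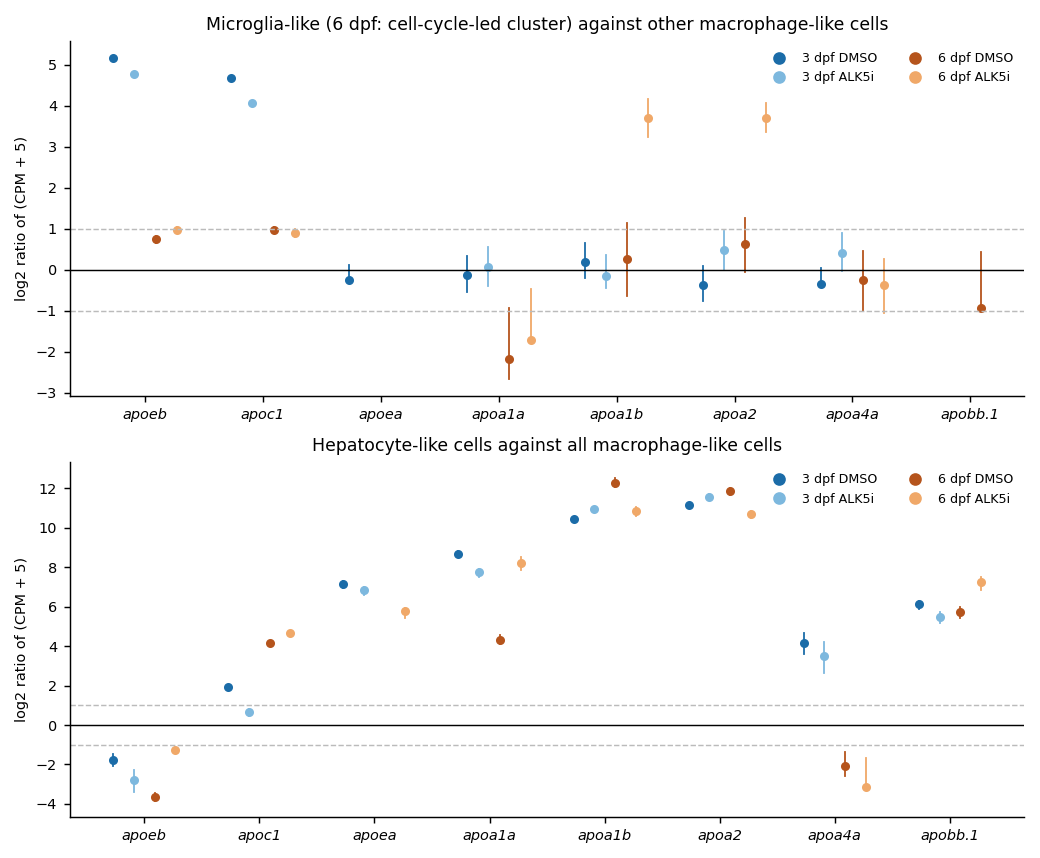
Log2 ratio of CPM + 5 for each member with at least 20 UMIs in the pair of classes, microglia-like against other macrophage-like cells (top) and hepatocyte-like against all macrophage-like cells (bottom). Points are single libraries, lines are exact conditional binomial 95% intervals, and dashed lines mark 2-fold. apoeb and apoc1 lie at 4.07 or above in the top panel at 3 dpf, and apoeb lies below 0 in the bottom panel in all 4 libraries.

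In hepatocyte-like cells the leading members were apoa2 and apoa1b. At 3 dpf, apoa2 stood at 28652 CPM (DMSO) and 29657 CPM (ALK5i), and at 6 dpf at 104708 and 123322 CPM. The level of apoa1b was 10991 and 13785 CPM at 3 dpf and 83295 and 68504 CPM at 6 dpf. The pair made up 3.96% and 4.34% of all hepatocyte-like UMIs at 3 dpf and 18.8% and 19.2% at 6 dpf. After thinning, apoa2 was found in 100% of hepatocyte-like cells in each library. Where members take such a share, every other gene's CPM in these cells is lowered by it.

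The level of apoc1 in hepatocyte-like cells was 4410 and 1976 CPM at 3 dpf and 28824 and 34543 CPM at 6 dpf. At 3 dpf this was below the microglia-like level, and at 6 dpf it was above every macrophage-lineage sub-cluster. The ApoB gene apobb.1 stood at 386 and 242 CPM at 3 dpf and at 482 and 1074 CPM at 6 dpf. Of the ApoA-I genes, apoa1a was lower than apoa1b in each library, with 4455, 2038, 608 and 4372 CPM in the order 3 dpf DMSO, 3 dpf ALK5i, 6 dpf DMSO and 6 dpf ALK5i. apoea was found at 825 and 665 CPM at 3 dpf, at 0 of 1258037 UMIs with DMSO at 6 dpf, and at 301 CPM with ALK5i there, of which 99.3% came from 1 cell. The level of apoeb was 354, 162, 151 and 738 CPM in the same order.

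Against all macrophage-like cells of the library, microglia-like cells included, 7 of 8 (DMSO) and 6 of 8 (ALK5i) members were more than 2-fold above in hepatocyte-like cells at 3 dpf. Of all genes tested, 21.8% and 19.7% were. At 6 dpf the counts were 5 of 7 and 6 of 8, against 11.6% and 11.3%. The filter adds the UMIs of both classes, so a member can pass it through the class where it is high. With ALK5i this held for apoea, with 107 UMIs in hepatocyte-like and 16 in macrophage-like cells at 3 dpf, and 135 and 2 at 6 dpf. It also held for apobb.1, with 86 and 18 (3 dpf DMSO), 39 and 9 (3 dpf ALK5i) and 482 and 8 (6 dpf ALK5i). All of these are among the members counted as above, so the counts rest in part on them. Nearly all of the 135 came from a single cell, and over alternatives the log2 ratio of apoea ran from 0.47 to 7.61. The log2 ratio of apoa1b ran from 10.44 to 12.29 over the 4 libraries and that of apoa2 from 10.68 to 11.84. The macrophage-like levels beneath these ratios were 1.99 to 32.4 CPM for apoa1b and 4.80 to 70.3 CPM for apoa2. At 6 dpf apoa4a was more than 2-fold below, at -2.07 and -3.12. For apoeb the log2 ratio was below 0 in each library, at -1.76, -2.81, -3.62 and -1.26 in the order above. In the same order, 20.2%, 25.1%, 45.7% and 53.9% of all genes tested were more than 2-fold below. The median log2 ratio over all genes tested was -0.11, -0.30, -0.89 and -1.10. Over alternatives, the 6 dpf ALK5i value of apoeb ran from -2.44 to -0.21. For apoc1 the log2 ratios were 1.93, 0.64, 4.17 and 4.65. Without the cell with most apoc1 UMIs in each class, the value for 3 dpf ALK5i was -0.23. The 3 dpf values of both genes depend on the microglia-like cells in the comparison. Against other macrophage-like cells alone, hepatocyte-like apoeb was higher with DMSO (354 against 292 CPM) and lower with ALK5i (162 against 287 CPM). At 6 dpf it was lower in both libraries. For apoc1 the 3 dpf levels were 4410 against 356 CPM (DMSO) and 1976 against 449 CPM (ALK5i).

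The hepatocyte-like cells at 3 dpf were not uniform. In 1 sub-cluster of 25 cells apoa1a was at 8.14 CPM and apoea had no UMI, beside 15319 CPM of apoa1b and 33570 CPM of apoa2. In another, of 51 cells with a median of 1120 UMIs, apoa1a was at 14617 CPM, apoea at 3448 CPM and apoc1 at 13096 CPM, with apoa1b at 13704 CPM. Both sub-clusters thus had like summed levels of apoa1b and very different summed levels of apoa1a and apoea. The summed levels of apoa1a and apoea came from a minority of cells. Over all hepatocyte-like cells at 3 dpf, apoa1a was found in 17 of 55 (DMSO) and 6 of 45 (ALK5i), and apoea in 14 and 6. In thinned cells the median of both genes was 0 in both libraries. The remaining one, of 24 cells, had 917 CPM of apoa1a and 104 CPM of apoea.

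At 6 dpf, among all classes of a library, apoa1a, apoea, apoeb and apobb.1 were highest in clusters that met no name. A cluster led by apoa1a and apoea themselves held 24 (DMSO) and 4 (ALK5i) cells, with 72230 and 50984 CPM of apoa1a and 7300 and 4259 CPM of apoea. It also held 5388 and 8072 CPM of apoeb and 2085 and 5720 CPM of apobb.1, so with ALK5i both were higher there than in the next cluster. It was shallow with DMSO, at a median of 885 UMIs per cell. Its 24 cells there held 307004 UMIs in all, so its summed levels came mostly from its deeper cells. A cluster led by isg15 and mdm2 held 26 and 16 cells, with 18421 and 15383 CPM of apoa1a, 6630 and 6937 CPM of apoeb and 2685 and 2606 CPM of apobb.1. Its fabp10a level, the liver fatty acid binding protein, was 4.598 CPM with both libraries summed, against 52893 CPM in the main hepatocyte-like sub-cluster. It held 57.3% and 60.1% of all apobb.1 UMIs of kept cells and 34.8% and 68.5% of those of apoa1a. Another cluster, led by si:ch211-220m17.4 and tm4sf4, had 18 and 17 cells and markers of both liver and intestine. Its apoa1b level was 48708 and 49475 CPM, and its apoa1a level 12497 and 921 CPM. Its apoa4a level was 1.69 CPM from 1 UMI (DMSO) and 154 CPM (ALK5i), beside 64.4 and 112 CPM in the isg15/mdm2-led cluster.

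**Figure D4:**
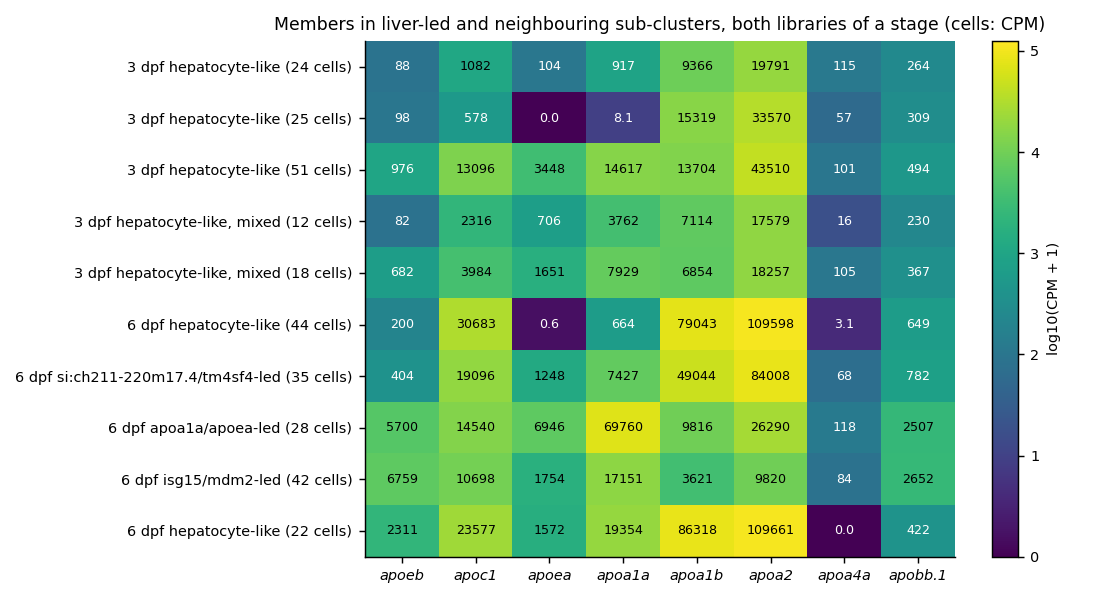
Level of each member in liver-led sub-clusters and in the 6 dpf clusters that met no name, with both libraries of a stage summed. Numbers are CPM and the colour is log10(CPM + 1). apoa1b and apoa2 are high in every hepatocyte-like row, whereas apoa1a, apoea and apoeb differ between rows and apobb.1 is highest, at 2652 CPM, in the isg15/mdm2-led cluster.

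With ALK5i against DMSO at 3 dpf, no member passed 2-fold in the macrophage lineage. The level of apoeb in microglia-like cells was 0.75-fold with ALK5i, a log2 ratio of -0.41 (interval -0.43 to -0.38), and that of apoc1 was 0.82-fold, at -0.28 (-0.31 to -0.25). Both were lower with ALK5i in 3 of 3 microglia-like sub-clusters, which are parts of the same pair of libraries and not replicates. With microglia-like cells taken cell by cell from 2 markers, the values were -0.02 for apoeb and 0.17 for apoc1, so the direction of apoc1 turned. In other macrophage-like cells apoeb was at -0.02 (-0.07 to 0.03), and apoc1 at 0.33 (0.29 to 0.37), higher with ALK5i in 9 of 10 sub-clusters. In these sub-clusters, again parts of the same libraries, p2ry12 was also higher in 9 of 10 and apoeb in 4 of 10. Of members tested, 0 of 4 in microglia-like and 0 of 8 in other macrophage-like cells passed 2-fold, against 0.416% and 0.116% of all genes tested. Their median log2 ratios were -0.15 and -0.05, beside -0.04 and -0.05 over all genes.

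Neuron-like values differed between the libraries as well. In neuron-like cells at 3 dpf, 2 of 4 members passed 2-fold, against 0.451% of genes tested: apoeb was 0.45-fold with ALK5i (log2 interval -1.26 to -0.75) and apoc1 0.314-fold (-1.56 to -0.89). With doublet calls kept the direction turned, to log2 ratios of 0.022 and 0.37, and with muscle-like CPM subtracted apoeb turned to 2.08. The count of 2 became 1 or 0 under 8 alternatives. The part of neuron-like differences in the lower values of microglia-like cells was not tested. Subtracting the neuron-like CPM left apoeb at -0.40 and apoc1 at -0.28 there. That CPM was too small beside the microglia-like level to move these values, so the subtraction cannot decide the question. The ALK5i library was also the shallower, at a median of 1740 UMIs per kept cell against 2316.

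In hepatocyte-like cells at 3 dpf, 3 of 8 members were more than 2-fold lower with ALK5i, against 11.8% of genes past 2-fold in either direction. These were apoa1a at -1.13 (interval -1.31 to -0.94), apoc1 at -1.16 (-1.34 to -0.97) and apoeb at -1.11 (-1.79 to -0.47). A single ALK5i cell held 76.2% of the apoa1a UMIs, and the level without the highest cell was 3420 CPM (DMSO) and 491 CPM (ALK5i). At clustering resolutions 0.5 and 2, the count of 3 became 1. The sub-cluster high in apoa1a and apoc1 supplied 29 of 55 cells with DMSO and 22 of 45 with ALK5i, at median depths of 1422 and 851 UMIs. By contrast, apoa2 was at 0.05 (-0.00 to 0.10) and apoa1b at 0.33 (0.24 to 0.41).

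At 6 dpf, 0 of 7 members passed 2-fold in other macrophage-like cells, against 0.609% of genes tested. The log2 ratios were -0.24 (interval -0.29 to -0.19) for apoeb and -0.30 (-0.36 to -0.25) for apoc1. With microglia-like cells taken from 2 markers per cell, apoeb in the other macrophage-like cells turned to 1.40 and the count of members past 2-fold was 3, as it was with doublet calls kept, and with a minimum of 1000 UMIs it was 2. Of 9 sub-clusters, parts of a single pair of libraries, 7 had less apoeb, 6 had less apoc1 and 6 had less p2ry12 with ALK5i. In the cell-cycle-led cluster apoeb was at -0.02 (-0.12 to 0.09) and apoc1 at -0.37 (-0.48 to -0.26), and 2 of 5 members passed 2-fold against 7.77% of genes, namely apoa1b and apoa2 through the single cell described above. In neuron-like cells 2 of 3 passed, against 9.79%. There 1 ALK5i cell held 96.8% of the apoc1 UMIs and 1 DMSO cell held 83.3% of the apoa1a UMIs.

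In hepatocyte-like cells at 6 dpf, 4 of 7 members were more than 2-fold higher with ALK5i, against 10.6% of genes past 2-fold in either direction. They were apoea, apoa1a at 2.84 (interval 2.72 to 2.96), apoeb at 2.25 (1.99 to 2.51) and apobb.1 at 1.15 (0.97 to 1.32). A single ALK5i cell held 99.3% of the apoea UMIs, 82.1% of those of apoa1a and 58.3% of those of apoeb. Without the highest cell of each gene in each class, apoa1a was at 499 CPM (DMSO) and 803 CPM (ALK5i), apoeb at 125 and 316 CPM and apobb.1 at 463 and 973 CPM, and the count past 2-fold was 2. At resolution 0.5 and with mixed liver-led sub-clusters kept the count was 1, and both apoa1a (-0.92 and -0.75) and apoea (-2.03 and -0.87) turned direction. The abundant members differed by less, with apoa1b at -0.28 (-0.30 to -0.26), apoa2 at 0.24 (0.22 to 0.25) and apoc1 at 0.26 (0.23 to 0.29). Depth and make-up differed too, with medians of 30931 UMIs per hepatocyte-like cell (DMSO) and 5173 (ALK5i). A shallow sub-cluster supplied 13 of 43 cells with DMSO and 9 of 23 with ALK5i, and its apoa1a level was 480 and 65271 CPM. With ALK5i it held 1621 of the 1962 apoa1a UMIs of the class, so the cell with 82.1% of them lay in it. The 65271 CPM thus came mostly from that single cell. The part of depth in these differences was not tested.

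**Figure D5:**
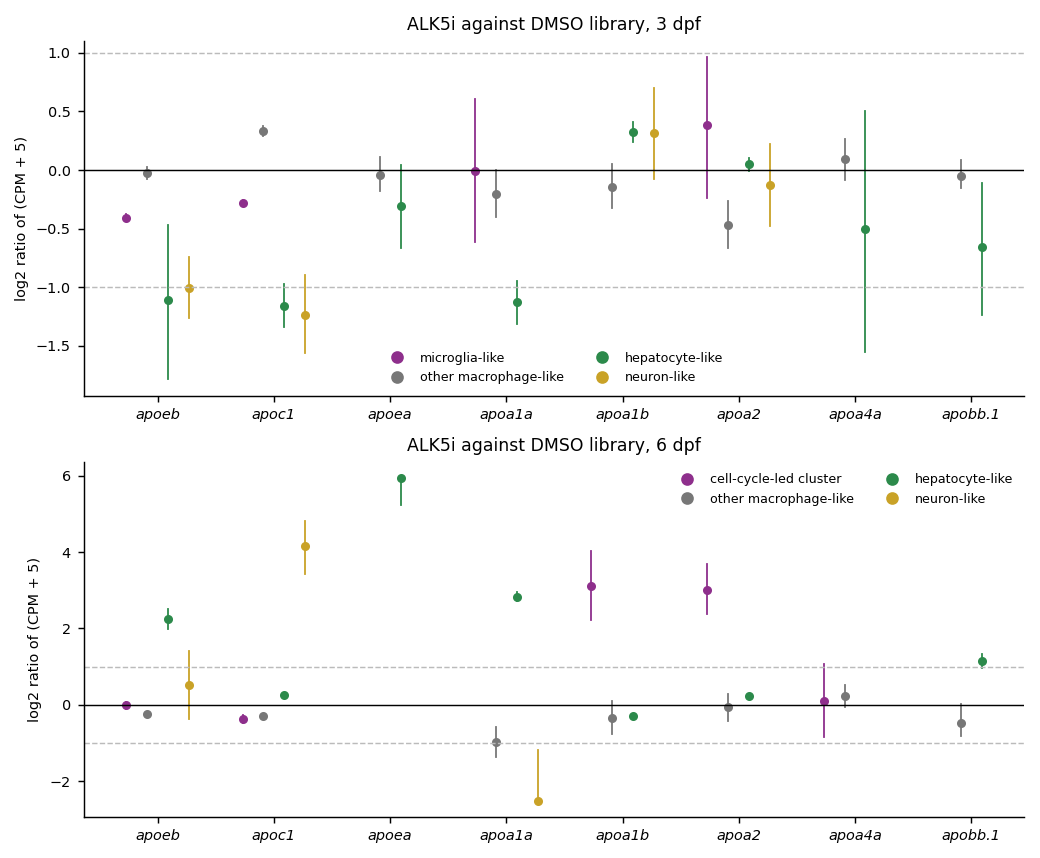
Log2 ratio of CPM + 5 between the ALK5i and the DMSO library for each member with at least 20 UMIs in the pair, at 3 dpf (top) and 6 dpf (bottom), by cell class. Lines are exact conditional binomial 95% intervals and dashed lines mark 2-fold. The points of microglia-like and other macrophage-like cells at 3 dpf lie between -0.47 and 0.39, while hepatocyte-like points reach 5.93 at 6 dpf, where 1 cell holds 99.3% of the apoea UMIs.

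Across 60 points, each a cell class in a library with at least 30 cells, apoa1b and apoa2 followed each other most closely (Pearson r = 0.97 of log2(CPM + 5)), and apoeb and apoc1 had r = 0.68. These points share libraries and depth, and r is a description. The cut of 30 cells left out the hepatocyte-like cells of 6 dpf ALK5i. It also left out the 6 dpf clusters without a name where apoa1a, apoea, apoeb and apobb.1 were highest. With DMSO, apoea and apoeb were high together there, at 7300 and 5388 CPM (apoa1a/apoea-led) and 2205 and 6630 CPM (isg15/mdm2-led). The values of r do not cover those clusters. Between apoea and apoeb, copies of the ApoE gene, r was 0.06, and between apoa1a and apoa1b it was 0.86. Among 10519 genes, the one most like apoeb was ptgis (r = 0.81), a prostacyclin synthase gene, and the one most like apoc1 was rbp2a (0.81), a retinol binding protein gene. For apobb.1 it was the afp4 feature ENSDARG00000095863 (0.98), for apoea si:dkey-35h6.1 (0.97), and for apoa1a oxct1b (0.93). The closest to apoa1b was cfhl4 (0.94), to apoa2 zgc:123103 (0.96) and to apoa4a zgc:174904 (0.78). Copies of a gene, such as apoea and apoeb or apoa1a and apoa1b, can share reads, and how the counting treated such reads is not given in the sources used here.

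Other genes of lipoprotein biology differed far less than apoeb and apoc1 between microglia-like and other macrophage-like cells at 3 dpf with DMSO. Of 13 receptor and uptake genes tested, 1 was more than 2-fold above and none below, with a median log2 ratio of 0.41 beside 0.02 over all genes. That gene was stab1, a scavenger receptor, at 139 against 33.4 CPM (log2 ratio 1.90, interval 1.73 to 2.07). The receptor scarb1, which binds high-density lipoprotein in mammals, was at -0.07 (-0.34 to 0.18). Of 14 efflux and sterol genes, npc2, a cholesterol carrier of the lysosome, was above at 1.12 (1.06 to 1.18), and none was more than 2-fold below. With ALK5i the value of npc2 was 0.96, short of 2-fold. The lipid exporters abca1a and abca1b were at 0.69 (0.62 to 0.77) and 0.96 (0.88 to 1.04), and soat1, which esterifies cholesterol, at -0.80 (-1.01 to -0.59) with DMSO and -1.08 (-1.33 to -0.84) with ALK5i. Of 11 assembly genes none passed 2-fold, and the highest was p4hb, a subunit of the lipid transfer complex, at 0.63 (0.49 to 0.77).

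Of 19 lysosomal and phagocyte genes, 1 was above (npc2 again) and 2 were below, the protease genes ctsl.1 at -1.32 (interval -1.40 to -1.25) and ctss2.1 at -1.07 (-1.12 to -1.02). Of 5 other apolipoprotein genes with enough UMIs, none passed 2-fold. In hepatocyte-like cells those other genes included apom, at 1337 and 1119 CPM at 3 dpf and 2742 and 3621 CPM at 6 dpf, and apoc2, at 807 and 373 CPM and then 515 and 1177 CPM. With ALK5i against DMSO at 3 dpf, no gene of the 5 lists passed 2-fold in microglia-like or in other macrophage-like cells. In microglia-like cells the nuclear receptor genes rxraa and nr1h3 were at 0.75 (0.53 to 0.96) and 0.52 (0.28 to 0.77), and scarb1 was at -0.66 (-1.08 to -0.25). In other macrophage-like cells the sterol regulator insig1 was at -0.77 (-0.92 to -0.63) and abca1a at 0.35 (0.31 to 0.39).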

How the data were processed

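Single-cell RNA was read with the 10x Genomics 3′ v4 kit in 4 libraries, 1 per group. The authors deposited counts, whole UMIs per gene and barcode, not normalized; the file headers name Cell Ranger 9.0.0, and the submitters' processing notes name Cell Ranger 9.0.1 and GRCz11. Barcodes were kept with at least 500 UMIs, 300 genes and at most 10% mitochondrial UMIs. Scrublet, in scanpy 1.11.5, called 2763 and 1930 doublets at 3 dpf (8.09% and 7.03%, against 13.7% and 11.0% expected) and 4 and 5 at 6 dpf. At 6 dpf those are under 0.5%, below the expected 0.794% and 0.474%, and all calls were removed. After filters 31396, 25543, 1980 and 1179 cells remained (3 dpf DMSO, 3 dpf ALK5i, 6 dpf DMSO, 6 dpf ALK5i). Both libraries of each stage entered 1 clustering (2000 variable genes, 30 components, 15 neighbours, Leiden resolution 1, seed 1) without batch correction, and macrophage-lineage and liver-led clusters once more.

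Clusters were named from 28 marker classes (349 of 362 symbols matched). A marker counted when found in at least 10% of a cluster's cells and 1.5-fold above the rest, and a name needed at least 3 counted markers and 0.333 of the list. Clusters with tied classes, with leading genes of another class or with shallow cells stayed unnamed, and macrophage and liver clusters with many markers of another class were kept apart as mixed. These conditions were set after clusters had been seen. Because the classes were rebuilt, a difference from the study may come from the names.

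UMIs were summed per class and library and scaled to CPM. Ratios are log2 of CPM + 5, and a gene was tested with at least 20 UMIs in the pair; folds are ratios of CPM without the 5. Intervals are exact Poisson, Clopper-Pearson or conditional binomial at 95% and cover counting error only. The ratio intervals were tested on simulated Poisson counts, which have no spread between cells, so that test does not bear on such spread. A gene without a UMI allows 3 UMIs of the class total. Shares used cells thinned to 1000 UMIs, leaving out shallower cells. Named genes were the 8 members, the highest and lowest 3 of each of 5 lists (94 of 102 symbols matched) with at least 50 UMIs, shown in part, and the genes most like each member. The members and lists were chosen with earlier results of these data known. Python 3.11.15, numpy 2.4.6, scipy 1.17.1, pandas 2.3.3 and igraph 0.11.9 were used.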

Additional observations from a re-analysis of the deposited data

Results flagged for a closer look

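The ALK5i against DMSO difference had opposite signs, with both counting intervals clear of 0, in 8 cases among 6 pairs of classes or stages looked at for each member. Pairs of opposite sign with an interval that reached 0 are not listed. Each class is 1 library per treatment, so none of these differences was tested. Values are log2 ratios of CPM + 5, and the size is the first minus the second.

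In hepatocyte-like cells, apoeb was at -1.11 at 3 dpf and 2.25 at 6 dpf (size -3.36), apoa1a at -1.13 and 2.84 (-3.96), apobb.1 at -0.66 and 1.15 (-1.81), apoc1 at -1.16 and 0.26 (-1.42), and apoa1b at 0.33 and -0.28 (0.61). In these cells 1 cell of the 6 dpf ALK5i library held 82.1% of the apoa1a and 58.3% of the apoeb UMIs.

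In other macrophage-like cells, apoc1 was at 0.33 at 3 dpf and -0.30 at 6 dpf (size 0.63). At 3 dpf, apoc1 was at -0.28 in microglia-like cells and at 0.33 in other macrophage-like cells (-0.61). In neuron-like cells, apoc1 was at -1.23 at 3 dpf and 4.15 at 6 dpf (-5.39), and 1 cell held 96.8% of the 6 dpf ALK5i UMIs.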

How the results depend on the processing

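No paired analysis was possible because each group has 1 library. Of the counts of members past 2-fold, 168 alternative values stayed within 1.5 times the reported count and 30 did not. Shares over all genes were not computed under the alternatives. Of the values of single members (log2 ratios, shares of cells and ratios to the liver list), 891 stayed within the reported interval, 439 did not and 20 turned direction. The cause of each change was not tested, apart from cells or clusters left out. The 5 added alternatives were chosen after seeing the data, namely leaving out the cell with most UMIs of the gene, the shallow liver-led or the hsp70-led sub-cluster, keeping mixed liver-led sub-clusters, and subtracting muscle-like CPM. Few hepatocyte-like cells and shallow 3 dpf cells limit the precision.

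At 3 dpf, apoeb in microglia-like against other macrophage-like cells ranged over alternatives from 3.58 to 5.54 (DMSO) and from 3.06 to 4.89 (ALK5i), and apoc1 from 3.30 to 5.40 and from 2.95 to 4.18. The direction of apoa2 turned with ALK5i, to -0.44 by 2 markers per cell and -0.23 without the top cell. At 6 dpf with DMSO the count of 0 members above became 1 with the mean over cells, with neuron-like CPM subtracted and at resolution 2, and 4 by 2 markers per cell. With ALK5i the count of 2 became 4 at resolution 0.5 and by 2 markers, and 0 without the top cell. There apoa1a turned to 1.58 by 2 markers and apoa2 to -0.18 without the top cell. With a minimum of 1000 UMIs or with doublet calls kept, no 6 dpf cluster met the microglia rule and no value was had.

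For hepatocyte-like against macrophage-like cells, apoc1 at 3 dpf with ALK5i turned to -0.37 at resolution 2, -1.34 without shallow liver-led sub-clusters and -0.23 without the top cell. At 6 dpf with ALK5i, apoa4a turned to 0.93 with mixed sub-clusters kept.

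For ALK5i against DMSO at 3 dpf, the count of 0 became 1 in microglia-like and 1 in other macrophage-like cells with muscle-like CPM subtracted, and apoc1 turned to 0.17 in microglia-like cells by 2 markers. In hepatocyte-like cells the count of 3 became 1 at resolutions 0.5 and 2. In neuron-like cells the count of 2 became 1 with median-of-ratios scaling, muscle-like CPM, doublet calls kept, resolution 2 and without the top cell, and 0 with the mean over cells, 1000 UMIs and resolution 0.5. There apoeb turned to 2.08 with muscle-like CPM and 0.022 with doublet calls kept, where apoc1 turned to 0.37.

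At 6 dpf without the top cell the counts became 0 in the cell-cycle-led cluster, where apoa2 turned to -0.78, 0 in neuron-like and 2 in hepatocyte-like cells. In other macrophage-like cells the count of 0 became 1 with pseudocount 1 and with the mean over cells, 2 with 1000 UMIs, and 3 with doublet calls kept and by 2 markers. There apoeb turned to 1.40 by 2 markers and apoa1a to 0.90 with neuron-like CPM subtracted. In hepatocyte-like cells the count of 4 became 1 at resolution 0.5 and with mixed sub-clusters kept, and 2 without shallow ones. There apoea turned to -2.03 at resolution 0.5 and -0.87 with mixed sub-clusters kept, apoa1a to -0.92 and -0.75, and apoc1 to -0.0032 with mixed sub-clusters kept.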

Other observations

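Epidermis-like cells at 6 dpf held a further apolipoprotein gene, apodb, at 67.1 CPM (DMSO) and 233 CPM (ALK5i), after 19.4 and 33.9 CPM at 3 dpf, while hepatocyte-like cells had no apodb UMI in any of the 4 libraries. The apoc2 level of epidermis-like cells was 26.3 and 54.4 CPM at 3 dpf and 0.823 and 0.518 CPM at 6 dpf. In the sub-cluster of 18 cells at 3 dpf that mixed liver and macrophage markers, havcr1, a phagocytic receptor gene among the microglia markers, was at 1127 CPM beside 18257 CPM of apoa2 and 682 CPM of apoeb. Doublet calls had been removed before these cells were grouped, and the cells entered neither the macrophage-like nor the hepatocyte-like class.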
